A study of Mus musculus with 8 samples.

Results

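The genes described here make sterols and fatty acids, or control, store and export their products. The list holds 36 genes, and every probe named for one of them was taken on its own. It was drawn up with earlier results of these data known and was chosen on the fall of Insig1 in the same comparison of G-CSF with Naive arrays, so all changes of the members between those groups are given as a description and support nothing about the list. Of the 36 genes, 31 had at least 1 named probe, against 16593 genes named on the array, and these 31 genes had 41 probes. Acat2, Fdft1, Mvk, Nr1h2 and Soat1 had no probe named in the annotation used and were not analysed here.

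Total RNA of natural regulatory T cells (Tregs, CD4+GFP+) from B6.FoxP3-GFP mice on the C57BL/6 background, whose GFP reports the Treg regulator Foxp3, was measured on single-colour Illumina arrays (MouseRef-8 v2.0). There were 4 arrays titled G-CSF, from mice treated with granulocyte colony-stimulating factor, which mobilises stem cells from the marrow, and 4 titled Naive, whose treatment label is saline. The sources used here give no dose, time, age or number of mice per array. They do not say that the arrays of a group came from separate mice, so p-values measure only the spread between these arrays, which may be technical.

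The deposited columns conflict on which group is which. A detection p-value should fall as intensity rises on the same array, and for 0 of 8 arrays did the p-values placed beside the intensities do so. Each array's intensities ran without a break against a single p-value column, and this always stood in the other group, under the same replicate number. The second deposited table, of log2 values, matched the intensities of the same title on all 8 arrays. Its values are normalised intensities, so it may repeat the same titles and does not settle the question. Groups here follow the titles of the intensity columns, and every higher and lower below turns round if those titles are the misplaced ones.

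Cells sense sterol in the membrane of the endoplasmic reticulum. When sterol is scarce, the escort protein SCAP carries the SREBP transcription factors to the Golgi, where they are cut and freed to switch on the genes of sterol and fatty acid synthesis. When sterol is plentiful, the INSIG proteins hold SCAP back, and LXR receptors switch on genes of sterol export. In T cells this pathway supplies membrane for growth, and mevalonate products have been linked to Treg function in mice.

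A level below is the log2 intensity of a probe after background correction and quantile normalisation, and a change is the G-CSF mean minus the Naive mean on that scale. Levels of different probes are not compared. A probe was called when limma's p-value, adjusted by Benjamini-Hochberg over all 10205 probes kept, was under 0.05, and only called probes are said to have risen or fallen. A probe counted as well above background on an array when its detection p-value was below 0.01, and probes passing this on 4 or more arrays were kept. This held for 33 of the 41 member probes, of 26 genes. In 0 of these 33 was a whole group below background. The single probes of Tm7sf2, Fasn, Scd1, Fads2 and Abca1 were not well above background on any array, and nothing is said of how these genes changed.

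In the sterol arm, from squalene to cholesterol, 6 of 13 kept probes were called lower in G-CSF arrays. Of these 13, 4 had a change above 0. In the mevalonate arm before it, and in fatty acid synthesis, 0 of 5 kept probes each were called. With so few probes, 0 calls cannot be told apart from the share called over all probes kept, given below. Of the 33 kept probes, 10 were called, 9 lower and 1 higher. The lower ones belong to 5 genes, Insig1, Sqle, Cyp51, Nsdhl and Hsd17b7, and the higher one to Srebf1. Limma adjusted p of the 10 lay between 0.0253 and 0.0471, all near the cut. Srebf1, Cyp51, Hsd17b7 and 1 probe each of Insig1 and Nsdhl had 0.0471. Over all probes kept, 2.2% were called, 1.24% lower and 0.951% higher, and since the list was chosen on this comparison nothing is read from the difference. Leaving out the 3 Insig1 probes gave 7 called of 30, 6 lower and 1 higher. The median change was -0.24 over the 33 member probes and -0.01 over all probes kept. With median scaling over all probes in place of quantile normalisation the same medians were 0.05 and 0.29. With median scaling over detected probes they were -0.30 and -0.06, close to those with quantile normalisation. The order, members below all probes, was common to every scaling. Below, median scaling without further words means that over all probes.

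The groups did not overlap for 13 of the 33 probes, 11 with all G-CSF arrays below all Naive arrays and 2 with all G-CSF arrays above. Over all probes kept the groups did not overlap for 13.6%, 6.85% with G-CSF below and 6.78% with G-CSF above. The number of calls rested on single arrays. It was 11 without G-CSF replicate 1 and 10 without Naive replicate 1, but 0 without any one of G-CSF replicates 2, 3 and 4 or Naive replicates 2, 3 and 4, and 0 without G-CSF replicates 3 and 4 together.

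**Figure D1:**
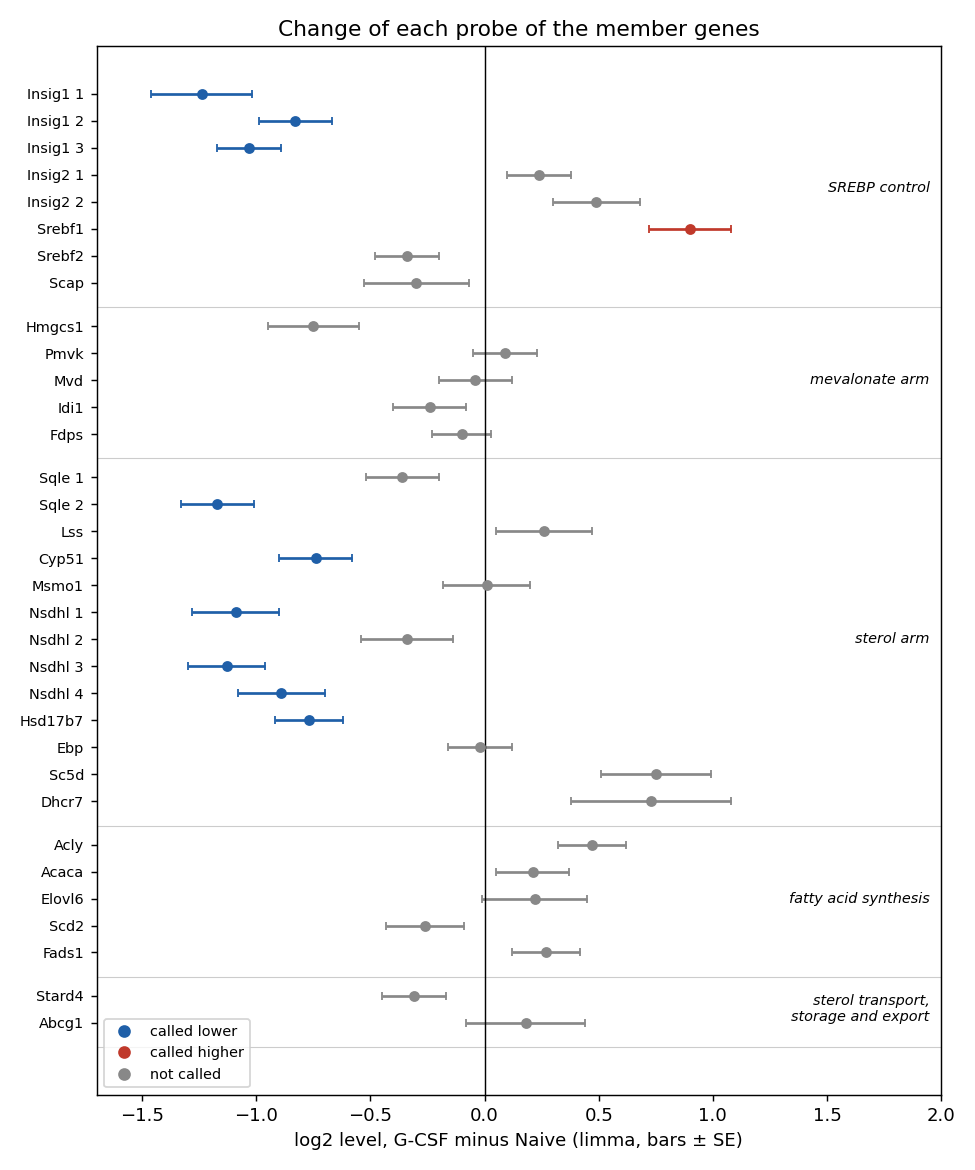
Change in log2 level (G-CSF minus Naive) of the 33 kept probes of the member genes, grouped by role, with bars of ± 1 SE from limma, 4 arrays per group. Numbers after a symbol tell its kept probes apart in the order used in the text. Blue marks the 9 probes called lower, red the 1 called higher (Srebf1) and grey the 23 not called.

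Facts of the arrays that touch these results are few. Between 9588 and 10519 probes were detected on an array. Median raw intensity was 144.2 ± 26.0 on G-CSF arrays and 122.0 ± 2.99 on Naive arrays (SD, n = 4 each, 2-sided exact permutation p = 0.0286, the smallest that 4 against 4 allows). G-CSF replicate 3 (180.8) and replicate 4 (145) were the brightest, and several changes without both are given below. Pairs of arrays correlated across kept probes at 0.947 to 0.993, so no array repeated another.

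Among the genes that control SREBP, Insig1 fell and Srebf1 rose. Insig1 encodes a membrane protein that holds SCAP and SREBP in the endoplasmic reticulum, and in mammalian cells it is itself switched on by SREBP. Its first probe (ILMN_2895388) had levels of 8.90, 8.95, 8.01 and 8.20 on G-CSF arrays 1 to 4, against 9.75, 9.92, 9.75 and 9.60 on Naive arrays 1 to 4. All G-CSF arrays lay below all Naive arrays, and G-CSF replicates 3 and 4 were lowest. The mean was 8.51 ± 0.48 in G-CSF and 9.75 ± 0.13 in Naive arrays (SD, n = 4 each), a change of -1.24 ± 0.22 (SE). Of the 10205 kept probes, 23 had a more negative change, a rank that is no evidence because the list was chosen on this fall.

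The other Insig1 probes showed the same. The third kept probe (ILMN_1245272) had 6.70, 6.59, 6.44 and 6.35 on G-CSF arrays, against 7.62, 7.49, 7.73 and 7.35 on Naive arrays, a change of -1.03 ± 0.14 (SE, n = 4 per group). The second (ILMN_2606693) had 6.26, 5.93, 6.37 and 6.24 on G-CSF arrays, against 6.84, 6.92, 6.97 and 7.37 on Naive arrays, a change of -0.83 ± 0.16. On all 3 probes the groups were apart, although only 2 of the 4 G-CSF arrays had the second well above background. A further Insig1 probe was below background on every array. With 1 array left out, the changes lay between -1.38 and -1.08 for the first probe, between -0.89 and -0.72 for the second and between -1.10 and -0.97 for the third. Without both of the brightest arrays they were -0.84, -0.88 and -0.88.

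Insig2, which encodes the other INSIG protein, had no called probe. Its 2 kept probes had changes of 0.24 ± 0.14 and 0.49 ± 0.19 (SE, n = 4 per group), neither called, with overlapping groups, and 0.14 and 0.33 without both brightest arrays. On the second of them the G-CSF arrays had 9.26, 9.15, 9.68 and 9.39, against 8.38, 8.98, 8.97 and 9.18 on the Naive arrays, so that G-CSF replicate 2 lay just below Naive replicate 4.

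Srebf1 encodes SREBP-1, whose SREBP-1c form drives fatty acid synthesis genes and is a target of LXR. Its kept probe (ILMN_2792089) had 6.59, 6.99, 7.45 and 7.19 on G-CSF arrays, against 6.24, 6.11, 6.10 and 6.19 on Naive arrays. All G-CSF arrays were above, with the Naive arrays close together and only 2 of those 4 well above background. The change was 0.90 ± 0.18 (SE, n = 4 per group), 0.74 to 1.06 with 1 array left out and 0.60 without both brightest arrays. Limma adjusted p was 0.0471, and the probe was called in only 5 of 19 alternative fits. The other Srebf1 probe was dark on all arrays, and neither probe is known here to tell the forms of SREBP-1 apart.

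Srebf2, whose product SREBP-2 mainly drives sterol synthesis, had 10.27, 10.53, 10.32 and 10.09 on G-CSF arrays, against 10.58, 10.57, 10.74 and 10.67 on Naive arrays. The groups were apart by a narrow gap. Its change of -0.34 ± 0.14 (SE, n = 4 per group) was not called. It was -0.25 without both brightest arrays and -0.01 with median scaling. Scap, the escort gene, had a change of -0.30 ± 0.23, not called. Its G-CSF arrays split, with 9.32 and 9.54 on replicates 1 and 2, 8.52 and 8.63 on replicates 3 and 4, and 9.15 to 9.61 on the Naive arrays. Without both brightest arrays the Scap change was 0.13.

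**Figure D2:**
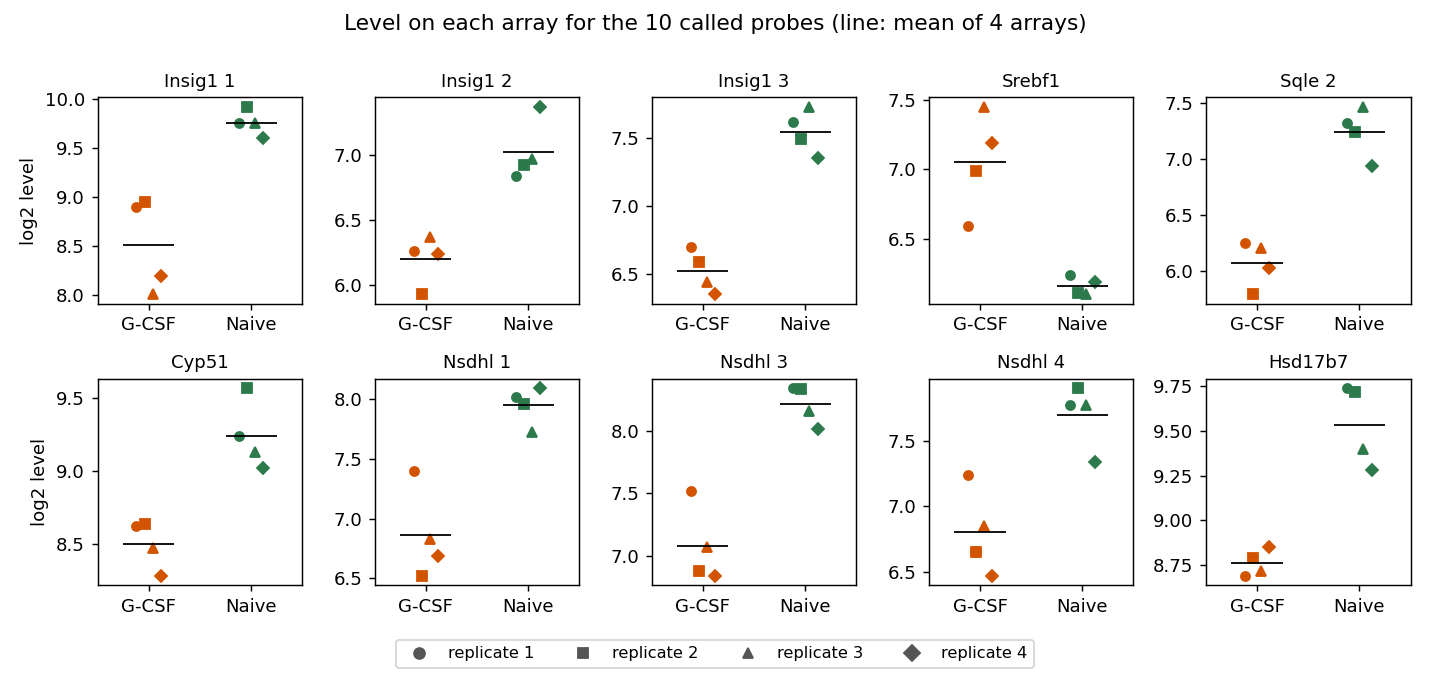
Log2 level on each array for the 10 called probes, each panel with its own vertical scale, G-CSF (orange) left of Naive (green). Symbols mark the replicate number and lines the mean of 4 arrays. The groups do not overlap in any of the 10 panels, and only Srebf1 has G-CSF above Naive.

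Of the mevalonate arm, which makes isoprenoid units from acetyl-CoA, 0 of 5 kept probes were called. Hmgcs1 encodes the synthase that makes HMG-CoA. It had 12.77, 12.93, 12.06 and 12.26 on G-CSF arrays, against 13.30, 13.38, 13.25 and 13.10 on Naive arrays. Every G-CSF array was below every Naive array, and again replicates 3 and 4 were lowest. The change of -0.75 ± 0.20 (SE, n = 4 per group) was not called in the whole-table fit, and was -0.42 without both brightest arrays.

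The later steps of this arm were closer to 0. Idi1, the isomerase of isopentenyl diphosphate, had -0.24 ± 0.16, Fdps, which makes farnesyl diphosphate, -0.10 ± 0.13, Mvd, the decarboxylase, -0.04 ± 0.16 and Pmvk, the second kinase, 0.09 ± 0.14 (changes ± SE, n = 4 per group). The groups of these 4 genes overlapped. Without both brightest arrays the changes were -0.15, -0.18, -0.10 and -0.01. With median scaling the changes of Fdps, Mvd and Pmvk were 0.15, 0.31 and 0.44. The mevalonate arm thus held 1 gene whose groups were apart.

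The sterol arm turns squalene into cholesterol, and 6 of its 13 kept probes fell, those of 4 of the 9 genes measured. Sqle encodes squalene epoxidase, a controlled step of the route. Its second probe (ILMN_2600348) had 6.25, 5.79, 6.21 and 6.03 on G-CSF arrays, against 7.32, 7.24, 7.47 and 6.94 on Naive arrays, a change of -1.17 ± 0.16 (SE, n = 4 per group). The groups were well apart, but only 2 of the 4 G-CSF arrays had this probe well above background. The first Sqle probe (ILMN_2737163) had 9.74, 9.88, 9.94 and 10.19 on G-CSF arrays, against 10.33, 10.53, 10.31 and 10.01 on Naive arrays. The groups overlapped by G-CSF replicate 4 and the change of -0.36 ± 0.16 was not called, so the probes of Sqle disagree in size. With 1 array left out the change was -1.28 to -1.08 for the second probe and -0.45 to -0.28 for the first. Without both brightest arrays it was -1.16 for the second and -0.50 for the first.

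Lss, the cyclase that closes the sterol rings, had a change of 0.26 ± 0.21 (SE, n = 4 per group), not called. It was 0.15 without G-CSF replicate 3 and -0.05 without both brightest arrays. Cyp51 encodes the demethylase of lanosterol, the first sterol made. Its probe (ILMN_2688075) had 8.62, 8.64, 8.47 and 8.28 on G-CSF arrays, against 9.24, 9.57, 9.13 and 9.02 on Naive arrays. The groups were apart, with a change of -0.74 ± 0.16, between -0.81 and -0.63 with 1 array left out and -0.61 without both brightest arrays.

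The 3 enzymes that then strip methyl groups from carbon 4 of the sterol differed in their calls, which was not tested. Nsdhl encodes the dehydrogenase of this complex and has 4 kept probes, of which 3 fell. The third (ILMN_2725402) had 7.52, 6.88, 7.07 and 6.84 on G-CSF arrays, against 8.34, 8.33, 8.16 and 8.01 on Naive arrays, and the groups did not overlap. The first (ILMN_2594525) had 7.40, 6.52, 6.83 and 6.69 on G-CSF arrays, against 8.02, 7.96, 7.72 and 8.09 on Naive arrays, and the fourth (ILMN_2594521) had 7.24, 6.65, 6.85 and 6.47, against 7.77, 7.90, 7.77 and 7.34. G-CSF replicate 1 was the highest of its group on these 3 probes. Their changes were -1.13 ± 0.17, -1.09 ± 0.19 and -0.89 ± 0.19 (SE, n = 4 per group), and -1.0, -0.96 and -0.73 without both brightest arrays. The second Nsdhl probe (ILMN_2958207), well above background on 3 of 4 arrays in each group, had -0.34 ± 0.20 with overlapping groups. That value was -0.45 to -0.17 with 1 array left out, -0.15 without background correction and -0.10 with median scaling. For the called probes the range with 1 array left out was -1.28 to -1.05, -1.27 to -0.97 and -1.04 to -0.77, in the order above.

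Hsd17b7 encodes the reductase of the same complex. Its probe (ILMN_1229529) had 8.69, 8.79, 8.72 and 8.85 on G-CSF arrays, against 9.74, 9.72, 9.40 and 9.28 on Naive arrays. The G-CSF arrays were tightly grouped (SD 0.07) and all lay below. The change was -0.77 ± 0.15 (SE, n = 4 per group), -0.86 to -0.71 with 1 array left out and -0.80 without both brightest arrays. Msmo1, the oxidase that acts before both of them, had a change of 0.01 ± 0.19, with 9.98 to 10.63 on G-CSF and 10.13 to 10.73 on Naive arrays. The Msmo1 change was -0.26 without both brightest arrays and 0.34 with median scaling, so no direction is given for it.

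The last steps of the route had no called probe. Ebp, an isomerase, had 11.48, 11.14, 11.50 and 11.48 on G-CSF arrays, against 11.27, 11.55, 11.45 and 11.41 on Naive arrays, a change of -0.02 ± 0.14 (SE, n = 4 per group). Sc5d, a desaturase, had 0.75 ± 0.24, although only 2 of 4 Naive arrays had it well above background and G-CSF replicate 2 (6.61) lay below Naive replicate 3 (6.77). The Sc5d change was 0.56 to 0.97 with 1 array left out and 0.50 without both brightest arrays. Dhcr7, the reductase that can end the route in cholesterol, had 7.85, 8.31, 9.54 and 9.51 on G-CSF arrays, against 7.74 to 8.41 on the 4 Naive arrays. G-CSF replicates 3 and 4 stood above all other arrays, and the change of 0.73 ± 0.35 was 0.01 without them. It was 0.48 without G-CSF replicate 3 alone and 1.05 without G-CSF replicate 1.

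**Figure D3:**
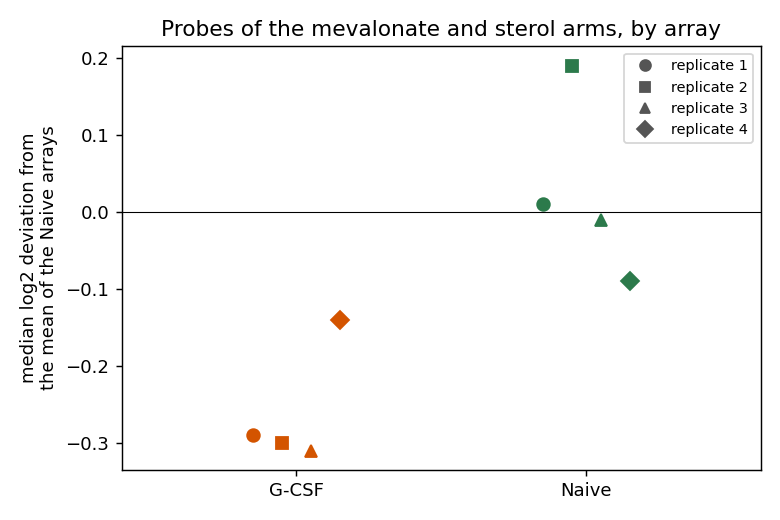
For each array, the median over the 18 kept probes of the mevalonate and sterol arms of the deviation from that probe's mean over the Naive arrays, in log2 units, with symbols marking the replicate number. G-CSF arrays (left) lie between -0.31 and -0.14 and Naive arrays (right) between -0.09 and 0.19. G-CSF replicate 4 is nearest to the Naive arrays. Values are quantile normalised and the list was chosen on this comparison, so the gap is a description only. The mean level of the mevalonate arm alone overlapped, with 9.54 to 9.65 on G-CSF and 9.61 to 10 on Naive arrays.

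Promoter sequence was not used to choose the members, but they were chosen as genes of a pathway that SREBP controls. Shares of motifs linked to SREBP are therefore not independent of the choice and are a description only. RefSeq promoters (GRCm38.p6, 250 bases before to 50 after the gene start) were matched by symbol for 20 of the 26 measured members, some with several starts. They were searched on both strands for CCAAT, the box bound by NF-Y, a partner of SREBP at sterol genes, for CACGTG, an E-box, and for TCACNCCAC, the core of a sterol regulatory element. These motifs did not overlap each other in the promoters printed here. CCAAT was found for 17 of 20 members (85.0%), against 41.1% of all 27025 genes with a promoter, and in 64.3% of the 28 member promoters, against 37.4% of all 32851. The E-box was found for 5 of 20 (25%), against 8.09% of all genes. All genes here were not limited to those with a kept probe, as the members were, so the shares are of unlike sets. The sterol element as spelled was found for 1 of 20 (5.0%), against 1.44%, and that member was Hmgcs1, not a gene with a called fall. A match describes the letters only and is no evidence of binding.

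Shown are the promoters of the 4 genes with a called fall that could be matched, and that of Hmgcs1 for its sterol element. The 4 are Insig1, Cyp51, Nsdhl and Hsd17b7, and all hold CCAAT. Of the 16 other matched members 13 did (81.2%), so CCAAT does not set the genes with a called fall apart. Each is written 5′ to 3′ along the gene with the motifs in capitals, a CCAAT on the other strand reading ATTGG. The Insig1 promoter lies at chr5:28071162-28071461 (+), Cyp51 at chr5:4104648-4104947 (-), Nsdhl at chrX:72918271-72918570 (+), Hsd17b7 at chr1:169969156-169969455 (-) and Hmgcs1 at chr13:119690101-119690400 (+). Nsdhl and Hmgcs1 hold 4 CCAAT boxes each, Hsd17b7 has 3, and Insig1 and Cyp51 have 1 each. Insig1 and Hsd17b7 each hold 1 E-box.
Insig1: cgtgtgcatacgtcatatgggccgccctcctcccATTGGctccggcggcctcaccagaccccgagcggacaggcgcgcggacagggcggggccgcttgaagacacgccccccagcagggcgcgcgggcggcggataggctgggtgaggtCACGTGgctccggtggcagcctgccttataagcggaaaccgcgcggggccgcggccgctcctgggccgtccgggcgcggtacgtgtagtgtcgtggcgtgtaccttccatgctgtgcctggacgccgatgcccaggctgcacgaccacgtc
Cyp51: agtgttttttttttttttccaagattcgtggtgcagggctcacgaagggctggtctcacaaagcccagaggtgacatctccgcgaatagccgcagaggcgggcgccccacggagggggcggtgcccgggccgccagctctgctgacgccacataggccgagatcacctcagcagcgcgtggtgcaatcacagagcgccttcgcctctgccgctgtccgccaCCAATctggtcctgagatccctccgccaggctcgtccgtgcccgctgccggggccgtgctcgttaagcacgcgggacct
Nsdhl: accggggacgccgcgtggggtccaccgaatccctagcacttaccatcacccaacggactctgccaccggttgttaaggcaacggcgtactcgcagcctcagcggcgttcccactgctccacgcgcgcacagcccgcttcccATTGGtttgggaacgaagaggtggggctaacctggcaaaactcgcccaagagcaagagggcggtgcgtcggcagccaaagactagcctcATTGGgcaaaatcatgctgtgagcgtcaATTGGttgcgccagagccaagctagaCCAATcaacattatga
Hsd17b7: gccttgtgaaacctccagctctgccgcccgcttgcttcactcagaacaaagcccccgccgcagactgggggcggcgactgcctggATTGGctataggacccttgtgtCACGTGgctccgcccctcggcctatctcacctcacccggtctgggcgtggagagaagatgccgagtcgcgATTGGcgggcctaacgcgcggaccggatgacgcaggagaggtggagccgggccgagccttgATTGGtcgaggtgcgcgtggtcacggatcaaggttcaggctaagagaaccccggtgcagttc
Hmgcs1: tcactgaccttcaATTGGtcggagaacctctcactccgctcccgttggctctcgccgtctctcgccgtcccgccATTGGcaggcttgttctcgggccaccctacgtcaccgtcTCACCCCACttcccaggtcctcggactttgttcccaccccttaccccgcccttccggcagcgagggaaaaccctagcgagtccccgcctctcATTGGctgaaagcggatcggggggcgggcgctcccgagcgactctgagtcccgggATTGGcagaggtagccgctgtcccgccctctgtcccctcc

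In fatty acid synthesis, 0 of 5 kept probes were called, 4 changes were above 0 and the median change was 0.22. Genes outside the list put under this role, described below, mostly went the other way. They include genes that use fatty acids and do not make them (Acsl3, Acsl4, Acsl5 and Lpin1). Of their 16 kept probes, from 10 genes, 14 had a change below 0, with a median of -0.19 and 0 called, so no direction is given for this role. Acly makes cytosolic acetyl-CoA from citrate for both routes. It had 13.24, 13.40, 13.70 and 13.75 on G-CSF arrays, against 13.24, 12.93, 13.05 and 13.01 on Naive arrays. The G-CSF arrays were above, G-CSF replicate 1 by less than the rounding of the values over Naive replicate 1, and the change was 0.47 ± 0.15 (SE, n = 4 per group), 0.28 without both brightest arrays.

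Acaca, the carboxylase that makes malonyl-CoA, had a change of 0.21 ± 0.16, Elovl6, which lengthens palmitate, 0.22 ± 0.23, Fads1, a desaturase of polyunsaturated fatty acids, 0.27 ± 0.15, and Scd2, a stearoyl-CoA desaturase, -0.26 ± 0.17 (SE, n = 4 per group). All 4 had overlapping groups. The Elovl6 change was -0.16 without both brightest arrays, and the Scd2 change 0.04 with median scaling. The difference between the fatty acid and sterol arms was not tested.

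Of the genes of transport, storage and export, 2 were measured and 0 called. Stard4 encodes a carrier of sterol between membranes and is known as an SREBP-2 target. It had 9.57, 9.76, 9.55 and 9.59 on G-CSF arrays, against 9.98, 10.11, 9.92 and 9.70 on Naive arrays. The groups overlapped only by G-CSF replicate 2 and Naive replicate 4, and the change was -0.31 ± 0.14 (SE, n = 4 per group). Abcg1, an LXR target that exports sterol, had 9.02 to 10.07 on G-CSF and 9.10 to 10.03 on Naive arrays, a change of 0.18 ± 0.26 that was -0.20 without both brightest arrays.

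**Figure D4:**
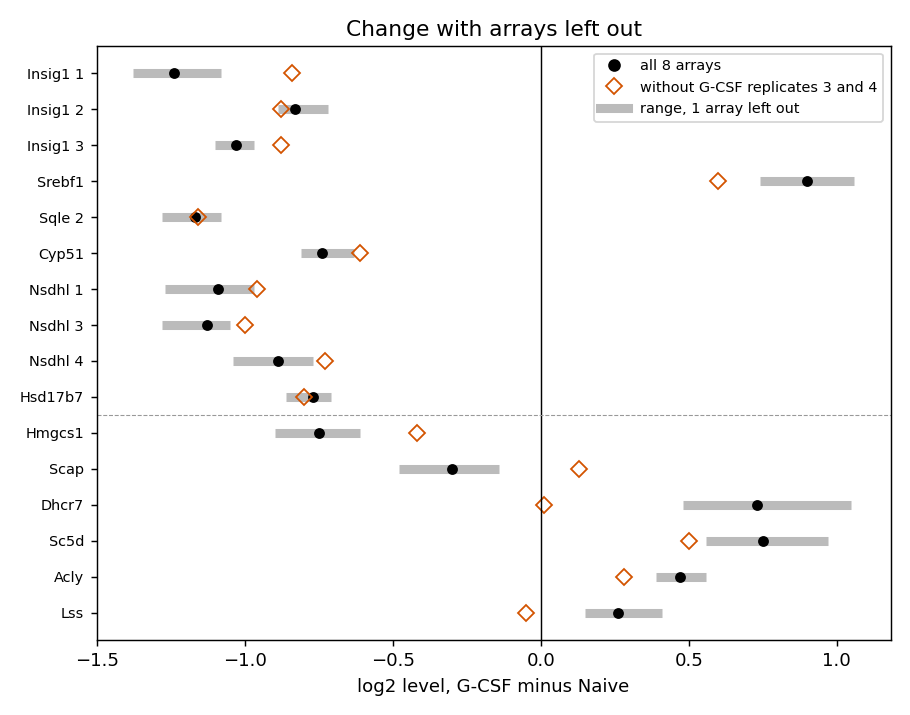
Change in log2 level (G-CSF minus Naive) for the 10 called probes, above the dashed line, and 6 others below it. Black points use all 8 arrays, grey bars span the values with 1 array left out, and open diamonds leave out the brightest arrays, G-CSF replicates 3 and 4. Without those arrays the probes called lower lie between -1.16 and -0.61 and Srebf1 at 0.60. Dhcr7, Scap and Lss lie at 0.01, 0.13 and -0.05.

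Without background correction the change was -0.58 for the called Sqle probe, -0.40 and -0.57 for Insig1 probes ILMN_2606693 and ILMN_1245272, and 0.44 for Srebf1. It was -0.66, -0.74 and -0.52 for Nsdhl probes ILMN_2594525, ILMN_2725402 and ILMN_2594521. Srebf1, ILMN_2606693 and ILMN_2594521 were then no longer called. Sc5d, not called, was at 0.34 without background correction. With median scaling 8 member probes were called, 5 lower and 3 higher, against 9 and 1 with quantile normalisation. Median scaling over detected probes gave 9 called lower and 0 higher. The values that follow are for median scaling over all probes. Cyp51 (-0.39), Hsd17b7 (-0.44), ILMN_2606693 of Insig1 (-0.57) and ILMN_2594521 of Nsdhl (-0.59) were then not called, and Sc5d (0.98) and ILMN_2690256 of Insig2 (0.84) were called higher. In a sorted bulk sample, fewer cells that express a gene and less RNA per cell cannot be told apart.

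Genes of the pathway outside the list were taken by textbook function. Of 53 such genes, 42 had a named probe and 30 were kept, with 41 probes. Limma called 0 of these 41, and 12 had an unadjusted p under 0.05, against 2537 of all 10205 kept probes, a similar share. The median change was -0.06. Apoe, a sterol carrier and LXR target, had the largest change, 1.02 ± 0.28 (SE, n = 4 per group, limma adjusted p = 0.0711), with 8.06 ± 0.24 in G-CSF and 7.04 ± 0.64 in Naive arrays (SD). Next came Lipa, the lysosomal lipase of cholesterol esters (0.67, limma adjusted p = 0.124), Elovl1, an elongase of very long fatty acids (-0.64 on 1 of 4 probes, limma adjusted p = 0.10), and Sec23a, a coat protein of the vesicles that leave the endoplasmic reticulum (-0.63, limma adjusted p = 0.0703). The groups overlapped for Apoe and Lipa and not for the probes of Elovl1 and Sec23a. By role, 8 of the 9 kept probes of LXR targets and sterol storage had a change above 0, and 2 of the 16 of fatty acid synthesis. For SREBP processing it was 6 of 13 and for sterol synthesis and uptake 1 of 3. Over all probes kept it was 5049 of 10205. Among the 8 was Abca2 (0.63, limma adjusted p = 0.0805), which was picked after its value was seen.

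Markers of other cells were set beside these results as sums of the linear normalised intensities of a list's probes, including those below background. Genes are counted below out of those with a named probe, and measured means kept. All 7 Treg and T cell markers were measured, 0 of 10 probes were called, and the sums were 71760 to 76905 on G-CSF and 72391 to 89268 on Naive arrays. Their changes went both ways, 5 above 0 and 5 below. Ctla4 had -0.57, with every G-CSF array below every Naive array. The Foxp3 probes had 0.49, 0.79 and 0.97, with overlapping groups. Monocyte and macrophage markers summed to 2755 to 3847 on G-CSF and 1487 to 2971 on Naive arrays, with 3 of 5 genes measured, Itgam below background on every array and Cd14 above it on 1 Naive array. Dendritic cell markers summed to 893 to 1520 on G-CSF and 1422 to 8164 on Naive arrays, with 2 of 3 genes measured and Itgax below background on every array. Macrophages express sterol genes too, and Apoe is one of their abundant transcripts. B cell markers summed to 1303 to 1552 on G-CSF and 1389 to 1735 on Naive arrays (1 of 3 genes measured), CD8 markers to 2209 to 3355 and 2988 to 3486 (1 of 2), and the red cell gene Hba-a1 to 461 to 1296 and 286 to 699. Of 4 neutrophil genes, 0 were measured, with sums of 169 to 390 on G-CSF and 171 to 1228 on Naive arrays. Single arrays still carried some: S100a8 was well above background on 1 G-CSF and 2 Naive arrays, S100a9 on 2 Naive arrays and Elane on 1 Naive array. The B cell gene Cd79a was so on 1 array of each group. Cell cycle markers summed to 5509 to 6792 on G-CSF and 3831 to 6074 on Naive arrays, and 1 of their 4 kept probes, of Tk1, rose. The part of these markers in the results above was not tested.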

How the data were processed

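Per the file headers, the authors deposited intensities that were not normalised, with a detection p-value each, for 25697 probes on 8 arrays. The submitters' processing notes name GenomeStudio, with no version given in the sources used here. A second deposited table holds log2 values, which recomputation showed to be quantile normalised log2 intensities with each probe centred on its median. Its direction and scale are those of the intensities, array medians lie between -0.004875 and 0.005682, and only the level of a probe is lost.

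P-value columns were assigned to the intensities whose order they matched (tolerance 1e-04), with the columns as placed as an alternative. Intensities were background-corrected by normexp from the p-values, quantile normalised and taken to log2 with an offset of 16 (neqc, limma 3.58.1, R 4.3.3). Symbols came from the platform annotation: 23978 probes had 1 symbol, 0 several and 1719 none. Of these symbols, 23962 were matched to RefSeq by Entrez identifier and 0 changed. Tests were limma's lmFit and eBayes with Benjamini-Hochberg adjustment over all 10205 kept probes, fitted on all 8 arrays and tested on simulated data. Every member is named, called probes and 1 probe of each role (the one of highest mean level, for display only) by array, and of the other pathway genes any called and the 4 largest changes; array values of further members were added after seeing them. Members, lists and settings, among them leaving out both brightest arrays, were chosen with earlier results of these data known. Alternatives changed the background correction, scaling, filter, model or arrays used. The number of arrays limits the precision.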

Additional observations from a re-analysis of the deposited data

Results flagged for a closer look

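Over the 33 kept probes, 66 groups of 4 arrays were looked at for an array far from the other 3, and 4 were found, where chance gives about 1 in 20. None of them is a called probe. The Ebp probe had 11.14 on G-CSF replicate 2, against 11.48 to 11.50 on the other G-CSF arrays. The Mvd probe had 9.50 on G-CSF replicate 3, with the other G-CSF arrays at 9.26 to 9.30, and 8.98 on Naive replicate 1, with the other Naive arrays at 9.48 to 9.54. The Scd2 probe had 8.14 on Naive replicate 2, with the other Naive arrays at 7.59 to 7.62.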

How the results depend on the processing

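Of 10 called member probes, 0 remained called with the replicate block, with no filter on dim probes and without G-CSF replicates 3 and 4, and 18 were called with array weights. With 1 array left out, 0 to 11 were called. Over all probes, 224 calls became 4 with the replicate block, 4 with no filter, 856 with median scaling (810 higher and 46 lower, against 97 and 127), 3776 with array weights, 0 without both brightest arrays and 1 to 1079 with 1 array left out. The median member change of -0.24 was -0.11 with no background correction and with the deposited log2 table, -0.13 with normexp from the intensities alone, 0.05 with median scaling (0.29 over all probes), -0.04 with no filter, -0.10 for probes detected on all 8 arrays, and -0.26 to -0.13 with 1 array left out. Median scaling over detected probes gave 249 calls over all probes. Other pathway probes called went to 5 with median scaling, 16 with array weights and 0 to 4 with 1 array left out. The G-CSF minus Naive difference in median raw intensity, 22.2, was 10 to 28.5 with 1 array left out and 3.5 without both brightest. The causes were not tested. Of 654 values of single member probes under alternatives, 598 moved by less than the spread between arrays and 56 by more, 25 of these with median scaling. Same-numbered arrays deviated together at -0.12, -0.02, 0.18 and 0.08 (correlation over probes), so the numbers were not taken to pair arrays. Dim probes near background have uncertain sizes.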
